A study of Mus musculus with 4 samples.

Results

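The genes described here are 10 genes of the antioxidant response in liver: the transcription factor gene Nfe2l2, which encodes NRF2; Keap1, which encodes its inhibitor; the NRF2 target genes Nqo1, Gclc, Gclm, Hmox1, Srxn1 and Txnrd1; and the redox enzyme genes Gsr and Cat. They were taken by name, and each of their probe sets that the array annotation gives to a single gene symbol was used. This gave 21 probe sets among the 45101 on the array, for 10 of the 18194 genes so named. Liver RNA of 4 male C57BL/6J mice was measured on one-colour Affymetrix arrays, 1 array per mouse. All mice were 12 weeks old, had been kept on normal chow and were fasted for 24 h. The groups were 2 wild-type mice and 2 Cnot3 heterozygotes (Cnot3+/-), and nothing more is said of the Cnot3 allele in the labels. The CNOT3 protein belongs to CCR4-NOT, the main deadenylase of mRNA poly(A) tails. The question is how the transcripts of these genes stand in fasted liver of each genotype.

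NRF2 is held in the cytoplasm by KEAP1, which presents it to a CUL3 ubiquitin ligase for degradation. When reactive cysteines of KEAP1 are modified by oxidants or electrophiles, NRF2 accumulates, pairs with small MAF proteins and binds antioxidant response elements in its target genes. In liver these targets supply glutathione, reduce quinones and peroxides, regenerate thioredoxin and break down haem. Catalase removes hydrogen peroxide in peroxisomes.

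The array values are RMA values on the log2 scale, so a step of 1 is a factor of 2. A level of one probe set cannot be set against that of another, because probes differ in brightness. The hepatocyte gene Alb, which encodes albumin, stood at 14.80, 14.86, 14.83 and 14.87 in wild-type 1, wild-type 2, Cnot3+/- 1 and Cnot3+/- 2, the order used for all values here. The array medians lay between 4.62 and 4.66. The targeted gene, Cnot3, showed no fall with the genotype label, at 7.48, 8.14, 7.70 and 7.86 on its brighter probe set (difference -0.03, SE 0.25) and with a difference of 0.11 (SE 0.15) on the other. Where its probes lie relative to the altered part is not known here, and probes outside that part check nothing, so every direction rests on the genotypes as labelled. Precision is limited by having 2 arrays in each group.

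No member gene differed between the genotypes past the threshold. Of the 21 probe sets, 0 had an adjusted p under 0.05 in limma, against 2 of 27022 over all probe sets tested (0.00740%), which belong to Lcn2 and Cox6b2. The lowest adjusted p among the members in limma was 0.9999. An unadjusted p under 0.05 was found for 0 of the 21, against 1006 of all probe sets tested (3.72%). At that share, a count of 0 does not set the members apart. The 2 Cnot3+/- mice stood apart from each other. The median gap between their arrays was 0.37 over the 21 probe sets, and that between the wild-type arrays was 0.22, against 0.18 for both over all probe sets tested. Cnot3+/- 2 was the highest of the 4 arrays in 15 of the 21 probe sets, from 9 of the 10 genes, where this held for 24.0% of all probe sets tested. Cnot3+/- 1 was the lowest of the 4 arrays in 10 of the 21, where this held for 23.5% of all. The median distance from the wild-type mean was 0.36 in Cnot3+/- 2 and -0.09 in Cnot3+/- 1, against -0.01 and 0.00 over all probe sets. Arrays were ranked in this way after the values were seen, the members are not independent of each other, and a contrast between 2 mice of 1 genotype has no replicate.

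**Figure D1:**
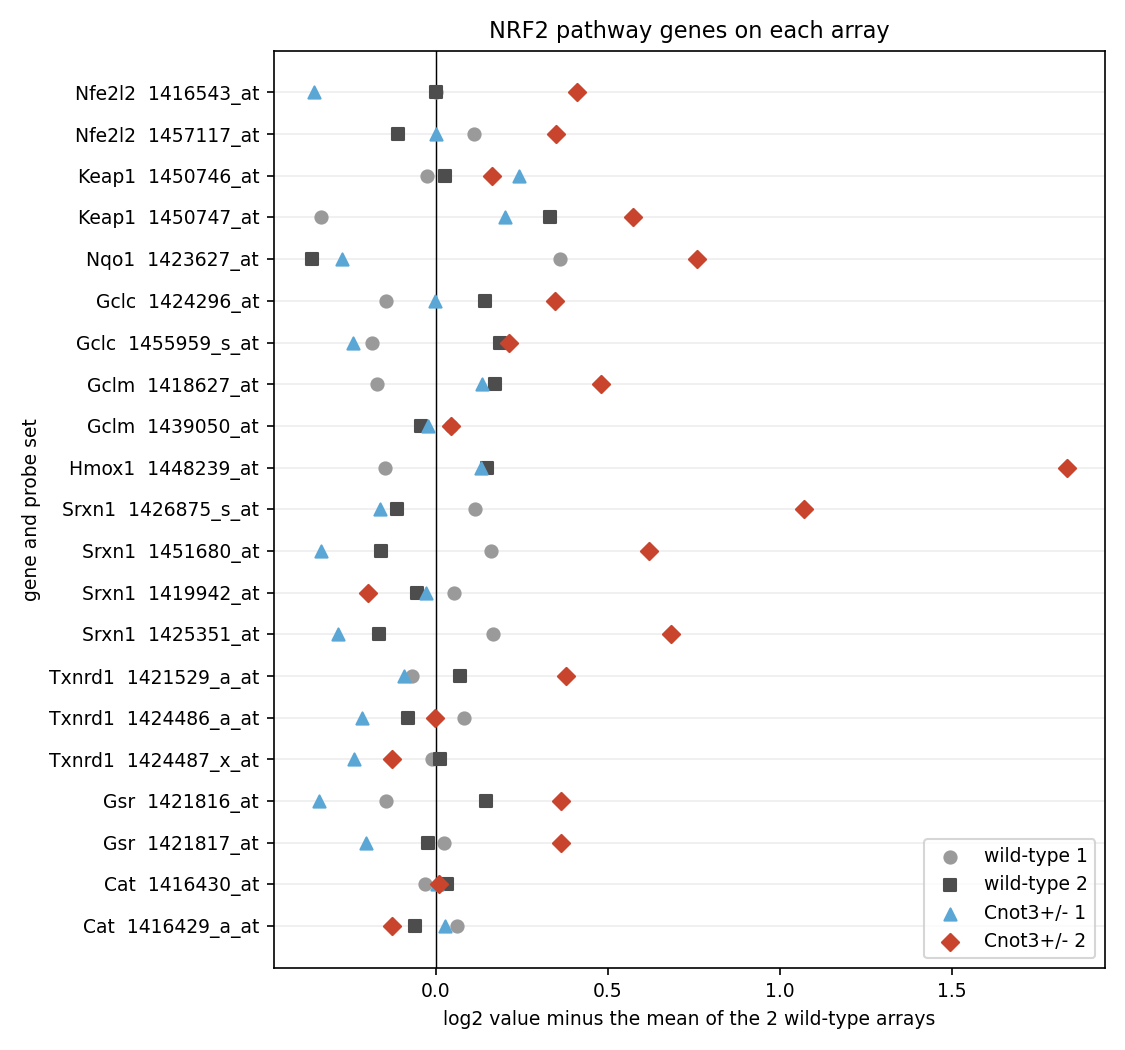
The horizontal axis gives each array's log2 value minus the mean of the 2 wild-type arrays, with a row for each of the 21 probe sets and a marker for each of the 4 arrays. Cnot3+/- 2 lies furthest right in 15 rows, by most for Hmox1, while the 2 rows of Cat stay close to the line at 0.

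Short promoter sequences were available for 7 of the 10 genes (RefSeq, GRCm38.p6; 9 start sites, of which 3 belong to Txnrd1), each from 250 bases before to 50 bases after the start. They are shown because NRF2 acts through antioxidant response elements, whose core can be written TGACNNNGC. The core was searched on both strands. It was present in 4 of the 9 windows, 1 each for Gclm, Nfe2l2, Srxn1 and Txnrd1, and in 12.4% of all 32851 promoter windows of 300 bases. The variant TGAGTCAGC was searched on both strands too, after the Srxn1 window had been seen, and it occurred in that window and in 0.414% of all windows. The windows of Cat, Keap1 and Nqo1 and the other 2 of Txnrd1 held neither, and sequence outside the windows was not searched. A match of letters is a description and not a measured binding site. The windows lie at chr3:122245307-122245606 on the plus strand for Gclm, chr2:75704614-75704913 on the minus strand for Nfe2l2, chr2:152105274-152105573 on the plus strand for Srxn1 and chr10:82858956-82859255 on the plus strand for Txnrd1. They are printed 5′ to 3′ along the gene's strand with the matches in capitals.
Gclm: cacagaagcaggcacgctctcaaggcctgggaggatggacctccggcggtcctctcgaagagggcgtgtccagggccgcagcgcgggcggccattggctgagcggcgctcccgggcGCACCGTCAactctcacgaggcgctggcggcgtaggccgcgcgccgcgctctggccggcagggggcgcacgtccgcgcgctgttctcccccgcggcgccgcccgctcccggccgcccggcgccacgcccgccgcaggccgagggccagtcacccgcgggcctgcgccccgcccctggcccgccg
Nfe2l2: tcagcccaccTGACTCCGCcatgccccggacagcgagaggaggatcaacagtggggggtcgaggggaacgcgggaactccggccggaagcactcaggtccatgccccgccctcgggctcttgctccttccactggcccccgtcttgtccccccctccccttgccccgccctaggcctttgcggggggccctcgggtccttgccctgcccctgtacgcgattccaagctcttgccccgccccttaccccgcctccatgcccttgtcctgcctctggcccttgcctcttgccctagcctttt
Srxn1: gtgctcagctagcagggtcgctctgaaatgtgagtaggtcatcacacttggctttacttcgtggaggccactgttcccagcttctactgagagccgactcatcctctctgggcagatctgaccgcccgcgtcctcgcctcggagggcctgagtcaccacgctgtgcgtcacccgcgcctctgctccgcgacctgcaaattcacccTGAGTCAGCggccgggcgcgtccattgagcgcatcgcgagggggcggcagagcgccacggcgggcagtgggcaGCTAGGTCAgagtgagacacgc
Txnrd1: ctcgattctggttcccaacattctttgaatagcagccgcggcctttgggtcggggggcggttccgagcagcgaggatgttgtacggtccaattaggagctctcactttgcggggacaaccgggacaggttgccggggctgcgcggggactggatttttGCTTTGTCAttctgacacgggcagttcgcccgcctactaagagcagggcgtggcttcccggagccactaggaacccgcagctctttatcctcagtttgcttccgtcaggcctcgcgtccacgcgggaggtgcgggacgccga

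Counted from the start site at 0, the match runs from -134 to -126 in Gclm, from -240 to -232 in Nfe2l2 and from -92 to -84 in Txnrd1. In Srxn1 the core runs from 28 to 36 and the variant from -45 to -37. The core reads along the gene's strand in Nfe2l2 and against it in Gclm, Srxn1 and Txnrd1, where it appears in reverse complement.

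The regulators came first. Nfe2l2 stood at 8.95, 8.95, 8.60 and 9.36 on its brighter probe set. The wild-type arrays were level, Cnot3+/- 1 lay below both and Cnot3+/- 2 above both, so the group difference was 0.03 (SE 0.27, n = 2 per group, 95% confidence interval -0.64 to 0.70). It was -0.35 without Cnot3+/- 2 and 0.41 without Cnot3+/- 1. The dimmer probe set of Nfe2l2 stood at 4.27, 4.04, 4.16 and 4.50, close to the filter on low values at 4.06, and differed by 0.17 (SE 0.18).

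Keap1, which encodes the adaptor that directs NRF2 to degradation, stood at 8.19, 8.24, 8.46 and 8.38 on its brighter probe set. Both Cnot3+/- arrays lay above both wild-type arrays, with a difference of 0.20 (SE 0.14, interval -0.14 to 0.54). It was the 1 probe set of the 21 whose groups did not overlap with Cnot3+/- higher, where 14.6% of all probe sets tested had that order. The other Keap1 probe set, at 6.71, 7.38, 7.24 and 7.61, overlapped between the groups and differed by 0.39 (SE 0.27). That value was 0.05 without wild-type 1 and 0.72 without wild-type 2.

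Hmox1, the haem oxygenase gene whose product opens the haem ring, had the largest difference of the 10 genes. Its log2 values were 6.64, 6.94, 6.92 and 8.62. Cnot3+/- 1 lay between the wild-type arrays and Cnot3+/- 2 stood alone, 3.57-fold above the wild-type mean and 3.26-fold above Cnot3+/- 1. The group difference was 0.98 (SE 0.54, interval -0.38 to 2.34, limma adjusted p = 0.9999). It was 0.13 without Cnot3+/- 2 and 1.84 without Cnot3+/- 1, where the adjusted p was 0.115; over all alternatives run it lay between 0.115 and 1.

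Srxn1 encodes sulfiredoxin, which repairs over-oxidised peroxiredoxins. The brightest of its 4 probe sets, an _s_at probe set that can read other transcripts too, stood at 7.04, 6.81, 6.76 and 7.99. Cnot3+/- 2 was again the high array, 2.10-fold above the wild-type mean, and Cnot3+/- 1 was the lowest. The group difference was 0.45 (SE 0.40, interval -0.56 to 1.46), and it was -0.16 without Cnot3+/- 2 and 1.07 without Cnot3+/- 1. A pair of further probe sets gave the same order of the Cnot3+/- arrays, at 6.77, 6.45, 6.28 and 7.23 and at 5.56, 5.22, 5.10 and 6.07. The fourth did not, at 6.62, 6.51, 6.54 and 6.37, where Cnot3+/- 2 was the lowest array. The probe sets of Srxn1 thus disagreed in Cnot3+/- 2, which lay 1.54-fold and 1.60-fold above the wild-type mean on the pair and at 0.872 of it on the fourth.

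Nqo1, which encodes a quinone reductase widely used as a readout of NRF2 activity, stood at 6.33, 5.61, 5.70 and 6.73. Cnot3+/- 2 was the highest array and lay 2.04-fold above Cnot3+/- 1. The wild-type arrays were themselves 0.72 apart, and wild-type 1 lay above Cnot3+/- 1. The group difference was 0.24 (SE 0.40, interval -0.77 to 1.26), and it turned to -0.27 without Cnot3+/- 2 and to -0.12 without wild-type 2. Hmox1 and Srxn1 were the members at least 2-fold above the wild-type mean in Cnot3+/- 2, with 1 probe set each of the 21, where 1.72% of all probe sets tested were. For Srxn1 that was the _s_at probe set, and none of its others reached 2-fold.

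Among the genes of glutathione synthesis, Gclc and Gclm encode the catalytic and the modifier subunit of glutamate-cysteine ligase, which makes the first and rate-limiting step. Gclc stood at 11.25, 11.53, 11.39 and 11.74, with a difference of 0.17 (SE 0.19), and its _s_at probe set at 10.58, 10.95, 10.53 and 10.98, with a difference of -0.01 (SE 0.22). Gclm stood at 11.06, 11.41, 11.37 and 11.71, with a difference of 0.31 (SE 0.20, interval -0.19 to 0.81). In these rows Cnot3+/- 2 was the highest array and wild-type 2 the next, so the gap between the wild-type mice was close in size to the gap between the Cnot3+/- mice. The Gclm value was 0.13 without Cnot3+/- 2, 0.14 without wild-type 1 and 0.48 without wild-type 2. A dimmer Gclm probe set lay between 9.56 and 9.65 on all arrays, with Cnot3+/- 2 and wild-type 1 both at 9.65.

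Gsr, the glutathione reductase gene, which returns oxidised glutathione to its reduced form with NADPH, gave like values on both of its probe sets. They were 8.55, 8.84, 8.36 and 9.06 on the first and 8.56, 8.51, 8.33 and 8.90 on the second. Cnot3+/- 1 was the lowest array and Cnot3+/- 2 the highest in both, and Cnot3+/- 2 lay 1.63-fold and 1.48-fold above Cnot3+/- 1. The group differences were 0.01 (SE 0.27) and 0.08 (SE 0.22), because the 2 mice lay on opposite sides of wild-type.

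Txnrd1 encodes cytosolic thioredoxin reductase, a selenoprotein that keeps thioredoxin reduced. Its brightest probe set stood at 9.47, 9.61, 9.45 and 9.92, with Cnot3+/- 2 the highest and a difference of 0.14 (SE 0.20). The dimmer _a_at probe set stood at 6.74, 6.58, 6.44 and 6.65 and the _x_at probe set at 6.01, 6.03, 5.79 and 5.90. On these Cnot3+/- 2 did not stand out, and the differences were -0.11 (SE 0.16) and -0.18 (SE 0.14). The _x_at probe set was the 1 of the 21 whose groups did not overlap with Cnot3+/- lower, where 16.5% of all probe sets tested had that order. Probe sets with the suffix _a_at can read several transcript forms of a gene, and those with _x_at or _s_at can read other transcripts too.

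Cat was the steadiest of the 10. It stood at 13.05, 13.12, 13.09 and 13.09, and at 12.79, 12.67, 12.76 and 12.61 on its second probe set. The differences were 0.01 (SE 0.13, interval -0.33 to 0.34) and -0.05 (SE 0.15, interval -0.42 to 0.32). Of the 21 intervals, 16 leave out a change by a factor of 2 (1 on the log2 scale), those of Cat among them. The other 5 do not, and belong to Hmox1, Nqo1, the dimmer Keap1 probe set and the Srxn1 probe sets with values of 7.99 and 6.07 in Cnot3+/- 2.

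**Figure D2:**
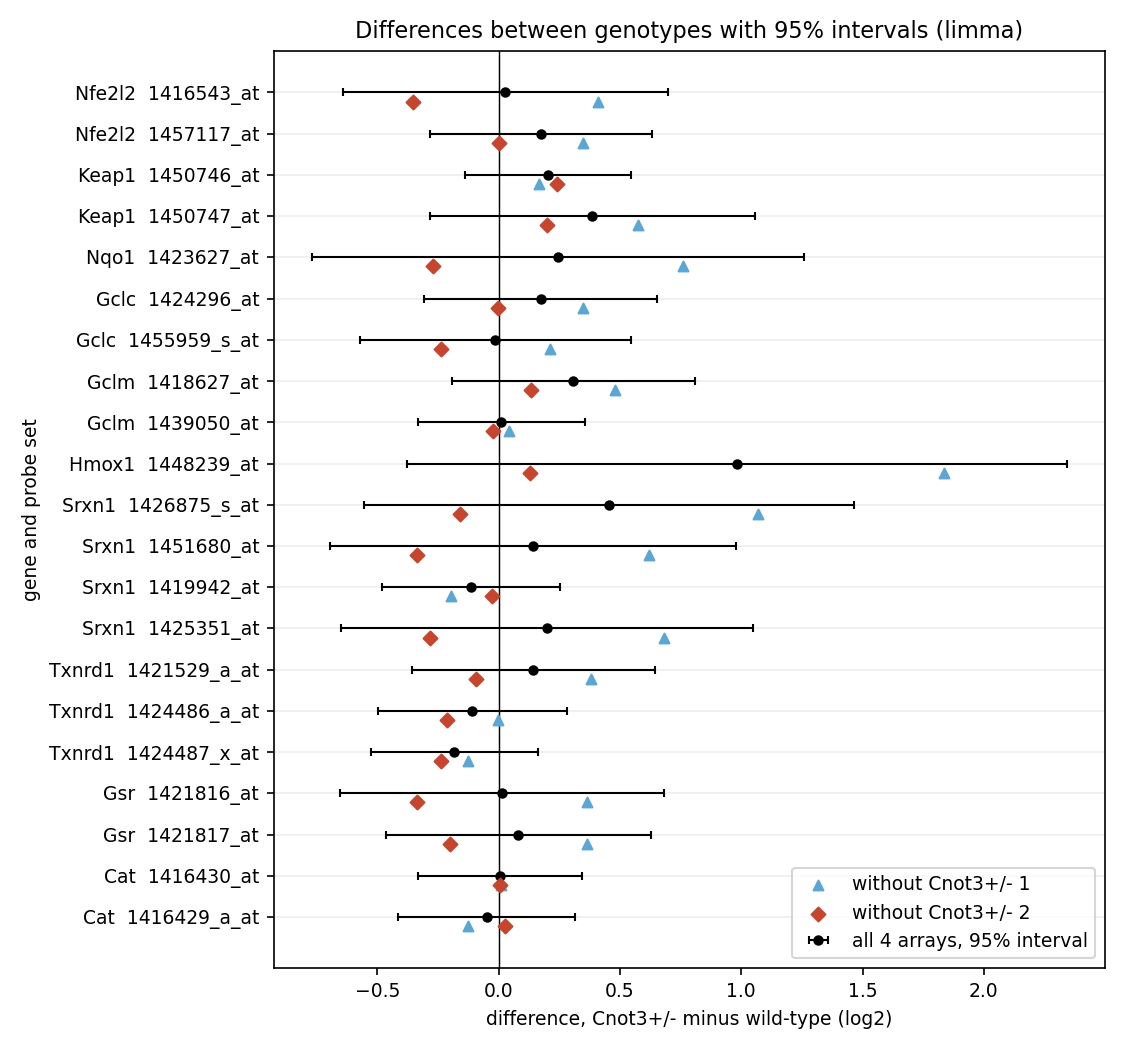
Black points give the difference Cnot3+/- minus wild-type (log2) of each probe set from all 4 arrays, with its 95% confidence interval from limma. Triangles and diamonds below them give the difference without Cnot3+/- 1 and without Cnot3+/- 2. All 21 intervals include 0, and for Hmox1 the value goes from 1.84 without Cnot3+/- 1 to 0.13 without Cnot3+/- 2.

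Over the 21 probe sets the differences ran from -0.18 to 0.98 with a median of 0.14, against a median of -0.01 over all probe sets tested. There were 16 above 0 and 5 below, with several probe sets from the same gene. Over all 27022 probe sets tested, 13130 were above 0 and 13891 below. The median of the members was -0.09 without Cnot3+/- 2 and 0.36 without Cnot3+/- 1. It was 0.05 without wild-type 1 and 0.06 without wild-type 2.

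Other genes of the pathway were taken from lists of its parts, 1 probe set per gene, and 0 of the 96 genes tested passed in limma. Of these, 1 had an unadjusted p under 0.05 (Gstm2), where 3.72% of all probe sets tested did. The counts of higher and lower genes in each list stand beside 13130 higher and 13891 lower of all 27022 probe sets tested. Among partners and regulators of NRF2, 12 of 16 genes were higher in Cnot3+/- and 4 lower, with a median difference of 0.17 and list means of -0.05, 0.05, 0.14 and 0.14 relative to the wild-type mean. Sqstm1, the autophagy receptor p62 that binds KEAP1, stood at 11.01, 11.35, 11.33 and 11.92 (difference 0.45, SE 0.24). The coactivator gene Crebbp stood at 7.85, 8.26, 8.55 and 8.36 (difference 0.40, SE 0.19).

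Of the 7 pathway lists, the detoxification genes that NRF2 is known to induce had the widest gap between the means of the Cnot3+/- mice. Of 25 genes tested, 15 were higher and 10 lower (median difference 0.02). Cnot3+/- 2 was the highest array in 16, where this held for 24.0% of all probe sets tested. The list means were 0.08, -0.08, -0.25 and 0.35, and the medians were -0.16 in Cnot3+/- 1 and 0.21 in Cnot3+/- 2. Gstm3 and Cbr3 had gaps of 2.46 and 2.12 between the Cnot3+/- mice. The wild-type mice were themselves 1.53 and 1.16 apart in these genes. The glutathione transferase gene Gstm2 stood at 8.32, 8.31, 8.70 and 9.46 (difference 0.77, SE 0.26), above wild-type in both Cnot3+/- mice. Osgin1, a gene induced by oxidative stress, stood at 9.42, 9.46, 9.40 and 10.38 (difference 0.45, SE 0.33), high in Cnot3+/- 2 alone.

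In the list of glutathione synthesis, use and turnover, 9 of 17 genes were higher and 8 lower (median 0.11). The peroxidase genes Gpx7 and Gpx3 had the largest differences. Gpx7 stood at 5.63, 5.27, 5.76 and 6.10 (0.48, SE 0.20) and Gpx3 at 6.79, 7.09, 7.10 and 7.73 (0.48, SE 0.25). In both genes the Cnot3+/- arrays lay above the wild-type arrays, though for Gpx3 Cnot3+/- 1 and wild-type 2 were level.

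Genes that supply NADPH had 2 of 7 higher and 5 lower (median -0.11). The pentose phosphate enzyme gene Pgd stood at 6.96, 7.15, 6.97 and 7.80 (0.33, SE 0.29), and the malic enzyme gene Me1 at 11.26, 11.86, 10.99 and 11.53 (-0.30, SE 0.28). Pgd was high in Cnot3+/- 2, and the groups overlapped in both genes.

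Thioredoxins, peroxiredoxins and methionine sulfoxide reductases had 2 of 13 genes higher and 11 lower (median -0.08), led by Msrb2 at 7.12, 6.61, 6.71 and 5.98 (-0.52, SE 0.30) and Msrb3 at 6.44, 5.90, 5.42 and 6.25 (-0.33, SE 0.33). Cnot3+/- 2 was the lowest array for Msrb2 and Cnot3+/- 1 for Msrb3. Of the superoxide dismutase list, 1 of 4 genes was higher. That was the extracellular enzyme gene Sod3, at 7.13, 7.19, 7.17 and 8.01 (0.43, SE 0.29), high in Cnot3+/- 2 alone, while the cytosolic Sod1 stood at 12.76, 12.91, 12.71 and 12.76 (-0.10, SE 0.14). Haem and iron genes had 6 of 14 higher and 8 lower (median -0.01). The haem transporter gene Slc48a1 stood at 8.05, 8.02, 8.14 and 8.62 (0.35, SE 0.20) and the biliverdin reductase gene Blvrb at 11.29, 10.88, 10.49 and 10.92 (-0.38, SE 0.22).

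**Figure D3:**
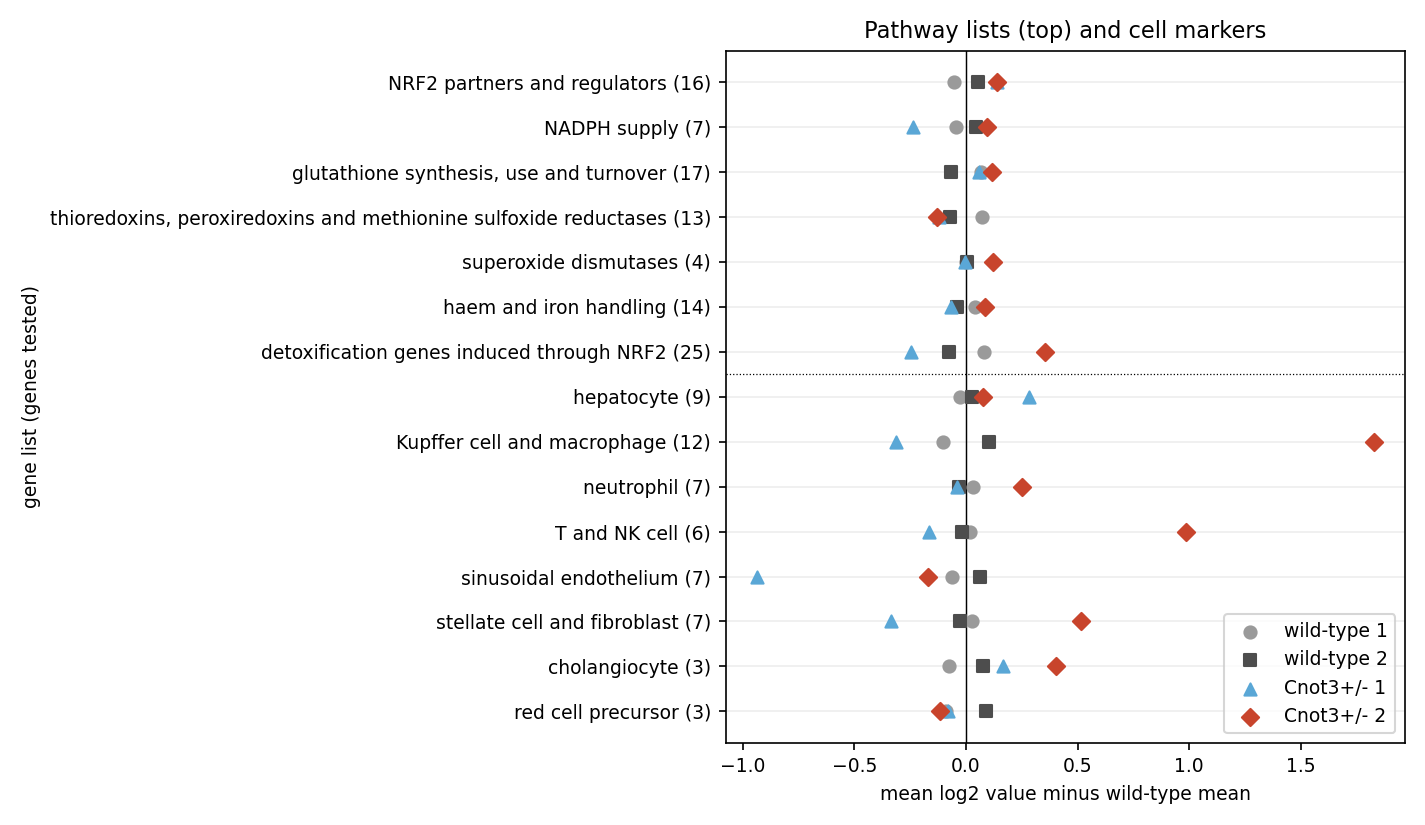
Each marker is the mean over a list's tested genes of the log2 value minus the wild-type mean, for 1 array, with the number of genes tested in parentheses. Above the dotted line, the detoxification list has Cnot3+/- 2 at 0.35 and Cnot3+/- 1 at -0.25. Below it, the macrophage markers have Cnot3+/- 2 at 1.83.

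Macrophage markers were high on the array where Hmox1 was high, which is a match on 1 mouse. Of the 12 markers, 0 passed the test in limma and 0 had an unadjusted p under 0.05, where 3.72% of all probe sets tested did. All 12 were highest in Cnot3+/- 2, where 24.0% of all probe sets tested were. In Cnot3+/- 1, 9 of 12 lay below the wild-type mean, as did 13465 of all 27022 probe sets tested, and Hmox1 lay 0.13 above it. The mean of the markers lay at -0.10, 0.10, -0.31 and 1.83 relative to wild-type. Their summed level (log2) was 12.13 and 12.32 in the wild-type mice. It was 11.97 for Cnot3+/- 1 and 13.93 for Cnot3+/- 2. Such a sum is led by the brightest probe sets, and probes differ in brightness. The lowest marker value was 4.35, for Timd4 in Cnot3+/- 1, near the filter on low values at 4.06. Whether each marker was detected on each array was not tested. Marco, a scavenger receptor gene of Kupffer cells, stood at 5.73, 5.85, 6.40 and 9.49, and Cd5l, a secreted macrophage protein gene, at 9.61, 9.79, 9.86 and 11.87. These had the largest differences of the 12, and they were not among the 9 below wild-type in Cnot3+/- 1. The T and NK cell list stood at 0.99 in Cnot3+/- 2 (median 0.74) and the stellate cell and fibroblast list at 0.52 (median 0.39). These means lean on genes that passed the filter through their value in Cnot3+/- 2. They are Cd3g, at 3.75, 4.14, 4.05 and 5.57, and Col1a1, at 4.12, 3.89, 3.85 and 5.08. Other genes of the lists did not rise in Cnot3+/- 2, such as Cd4 (0.05) and Acta2 (-0.12). The sinusoidal endothelial list was lowest in Cnot3+/- 1, at -0.94, and lay at -0.17 in Cnot3+/- 2. All 7 of its genes were lower in Cnot3+/-. In 4 of them the groups did not overlap, where 16.5% of all probe sets tested had that order. In limma 0 of the 7 passed and 3 had an unadjusted p under 0.05, where 3.72% of all did. The hepatocyte list lay at 0.28 in Cnot3+/- 1 and 0.08 in Cnot3+/- 2. In whole liver RNA, more cells of a type and more RNA per cell cannot be told apart, and the part of these cell types in the values of the member genes was not tested.

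**Figure D4:**
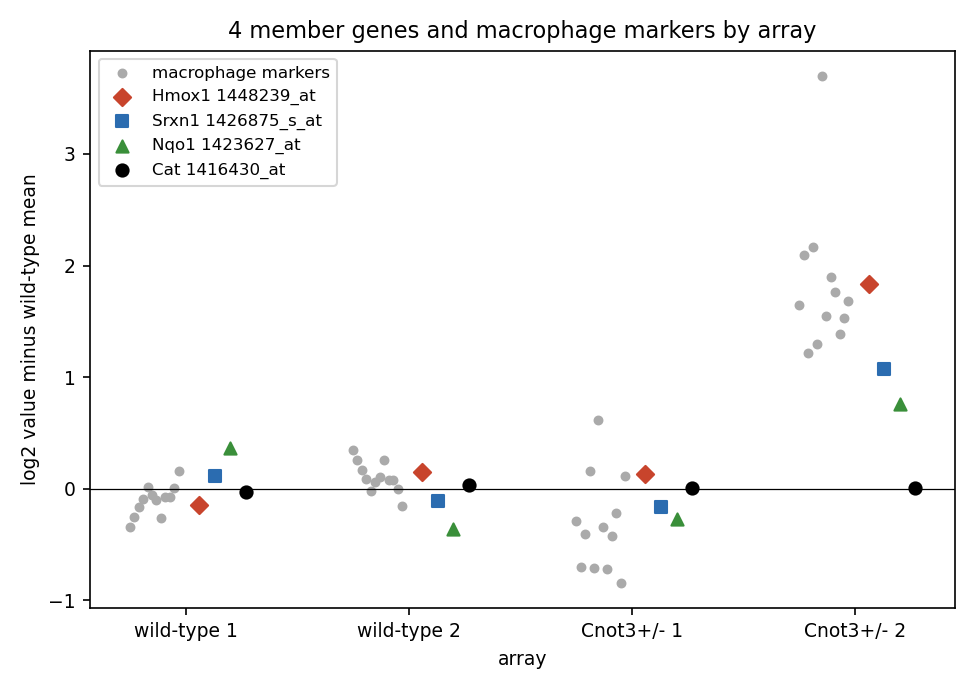
The vertical axis gives the log2 value minus the wild-type mean on each of the 4 arrays, for 12 macrophage markers (grey) and for the brightest probe sets of Hmox1, Srxn1, Nqo1 and Cat (coloured or black). In Cnot3+/- 2 Hmox1 lies at 1.84, within the range of the markers, Srxn1 (an _s_at probe set) at 1.07, Nqo1 at 0.76 and Cat at 0.01.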

How the data were processed

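Liver RNA of 4 mice was measured on Affymetrix arrays. Per the submitters' processing notes, RMA was used, and the deposited table was taken to hold its log2 values per probe set. RMA compresses differences of dim probe sets. Its version and the set of arrays it was run on are unstated. The log2 scale was read from the values (1.85 to 14.96). No further normalization was applied. Probe sets were named by the platform annotation, and all 21 of the members kept their symbol by Entrez identifier. Of 45101 probe sets, 64 array controls and those in the lowest 40% of mean log2 value (below 4.06) were left out, which kept 27022 and every member.

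Cnot3+/- was compared with wild-type in limma 3.58.1 (R 4.3.3; lmFit, eBayes, two-sided, no covariate), across all probe sets kept, with Benjamini-Hochberg adjustment over all of them and a threshold of 0.05. The fit had 2 residual degrees of freedom, and the prior added 3.43. The script was tested on simulated data. Lists used 1 probe set per gene among those that passed the filter. It was the brightest, with _x_at and _s_at probe sets used only where there was no other. Each pathway list is described by its 2 genes of largest difference. For the detoxification list, Gstm3 and Cbr3 are added for their gaps between mice. Cell markers are given by list. Single genes are given for macrophages, whose list was high, as Hmox1 was, in Cnot3+/- 2. The members, lists and array rankings were chosen with earlier results of these data known. Of 109 genes in the pathway lists, 96 could be tested.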

Additional observations from a re-analysis of the deposited data

How the results depend on the processing

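The count of member probe sets called stayed at 0 under each alternative run: no filter, the lowest 60% left out, 1 probe set per gene, quantile normalization, median centring, no moderation, a mean-variance trend, the replicate block and each array left out. Over all probe sets, 2 were called, 3 with no moderation, and 0 with the replicate block or without any 1 array. The replicate numbers were used as a block although nothing in the labels pairs the mice, and deviations of same-numbered mice correlated at 0.17. The median difference of the members (0.14) ran from -0.093 to 0.36 with 1 array left out. With quantile normalization, 4 values near 0 changed sign, to -0.0087 for Nfe2l2, -0.011 for Gclm, -0.012 for Cat and -0.028 for Gsr; the cause was not tested. Quantile normalization moved the median of all probe sets from -0.01 to -0.02.

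With 1 array left out, 13 of the 21 probe sets changed sign at least once, in 11 of them without Cnot3+/- 2, and the 3 remaining arrays give little precision. The ranges were -0.35 to 0.41 for Nfe2l2, -0.27 to 0.76 for Nqo1, -0.0021 to 0.35 and -0.24 to 0.21 for Gclc, -0.033 to 0.055 for the dimmer Gclm, -0.16 to 1.07, -0.34 to 0.62 and -0.28 to 0.68 for Srxn1, -0.093 to 0.38 for the brightest Txnrd1, -0.34 to 0.36 and -0.20 to 0.36 for Gsr, and -0.026 to 0.039 and -0.13 to 0.027 for Cat.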
